A study of Sus scrofa with 4 samples.

Results

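The mitochondrial apoptosis genes examined here are 9 genes of the pathway by which a cell dies through its mitochondria, taken from the deposited expression table by gene symbol. The symbols were picked by role in the pathway, with earlier results of these data known. All 9 (BCL2, BCL2L1, BCL2L10, MCL1, BAX, BAK1, BID, CASP9 and APAF1) had a row with values, among 16050 genes with values. The samples were porcine oocytes at metaphase II, the stage at which a mature oocyte waits for fertilisation, collected after in vitro maturation of cumulus-oocyte complexes from slaughterhouse ovaries. The Control oocytes matured in the standard hormone-supplemented medium, and the Cu oocytes in the same medium with 25 μg/mL copper sulfate solution, for a culture time given as 44 h for the maturation experiments. Each library held 3 pooled oocytes, and Control replicates 1 and 2 and Cu replicates 1 and 3 were analysed, which is 2 libraries per group. Neither the labels nor the methods say whether the libraries came from separate cultures or animals, so every p-value below measures only the spread between these libraries. The groups are used as labelled. Which libraries were exposed was not checked independently from the values. There is some doubt about the direction of the labels, and every direction below would turn if they were exchanged. The transcriptome question addressed by the comparison was which genes follow Cu exposure in mature oocytes.

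In this pathway, the BCL2 family controls whether the outer mitochondrial membrane is opened. Its anti-apoptotic members, such as BCL2, BCL2L1 (BCL-XL), BCL2L10 and MCL1, bind and hold back the effectors BAX and BAK1, which form the pores, while BH3-only proteins such as BID carry death signals to them. Cytochrome c that escapes through the pores joins APAF1 to form the apoptosome, which activates the initiator caspase CASP9, and CASP9 in turn activates the executioner caspases. Oocytes store maternal mRNA for later use, and BCL2L10 is known as a BCL2 family member with strong expression in oocytes.

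Levels are in FPKM, in which the fragments of a gene are divided by its transcript length and by the library's total, so that different genes can be compared. The read number behind a value is lost in this unit, and sequencing depth is unknown. The values report polyadenylated mRNA amplified by Smart-seq2 and carry no information on protein. In pooled oocytes, fewer cells of a type and less RNA per cell cannot be told apart. The oocyte markers were present in every library, with 12 of 12 tested. Their summed level was lowest in Control 1, at 4290 FPKM, and highest in Cu 1, at 7698 FPKM. Of the 12, 10 were higher in Cu, with a median log2 fold change of 0.54. Among all tested genes, 5494 of 8541 were higher in Cu, with a median of 0.16. For these markers no value without Cu 1 is given. The cumulus and granulosa cell markers summed to 11.8 to 18.1 FPKM, mostly from FST, with 11 of 16 having values. AMH was listed at 0 throughout, and PTX3 and CD44 were at 0.15 FPKM or less. VCAN, which passed the filter as FST did, had 0.49 to 1.43 FPKM, and TNFAIP6 reached 0.97 FPKM in Cu 1. Only 2 of 6 blood cell markers had values. Their sum was 8.83 FPKM in Cu 1 and between 1.03 and 1.49 FPKM in the other 3 libraries, because SPI1 had 8.51 FPKM in Cu 1, while PTPRC was below 0.4 FPKM throughout. The part of these markers in the results was not tested. Cu 1 stood apart from the other libraries. Across the 8541 tested genes, its Pearson's correlations of log2(FPKM + 1) with them were 0.918 to 0.923, against 0.959 to 0.976 among the other 3, and 14.3% of the genes were at least 2 times as high in Cu 1 as in any other library, against 0.84% or less for each of the others. For this reason values without Cu 1 are given beside the main ones.

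Nearly all of the FPKM of these 9 genes came from a pair of anti-apoptotic genes. BCL2L1 and BCL2L10 together accounted for 98.6% and 96.0% of the summed FPKM of the 9 genes in the Control libraries and for 98.1% and 96.6% in the Cu libraries. BAX and BAK1 together summed to 0.12 FPKM in Cu 1 and were listed at 0 in the other 3 libraries. Only 4 of the 9 genes were high enough to be tested. None of these passed an adjusted p of 0.05 between the groups, and neither did any other of the 8541 genes tested. Without Cu 1, 186 of them (2.18%) passed, none of them among the 9. On the log2(FPKM + 1) scale, the largest difference within the 9 was that of BCL2L1, and it was carried by Cu 1 alone.

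**Figure D1:**
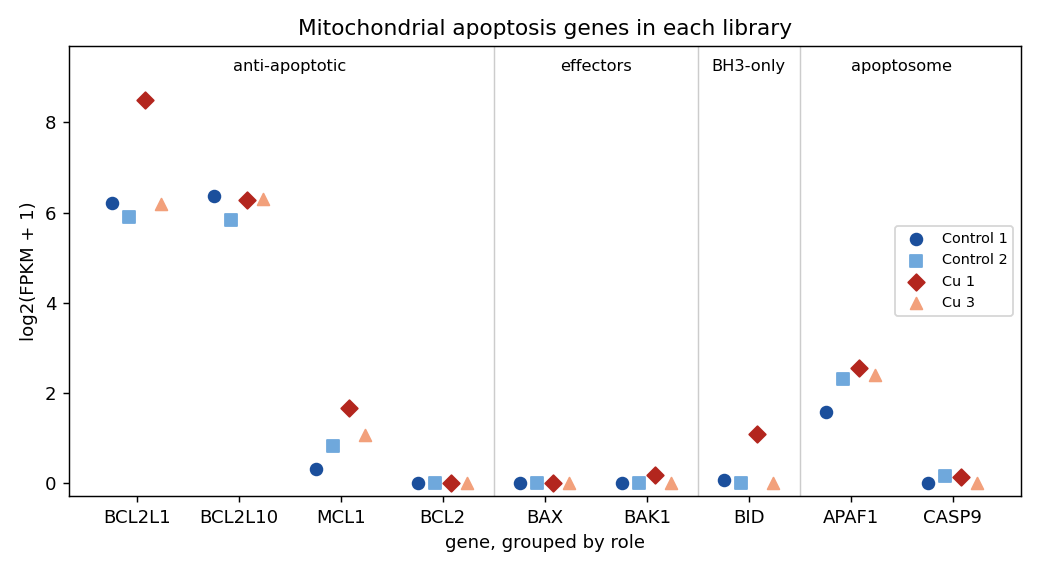
Level of each of the 9 genes as log2(FPKM + 1), with 1 point per library, Control in blue and Cu in red and orange, and the genes grouped by role along the horizontal axis. BCL2L1 and BCL2L10 lie near 6 in every library except for BCL2L1 in Cu 1 (358.56 FPKM), APAF1 and MCL1 lie lower, and BCL2, BAX, BAK1 and CASP9 lie at or close to 0.

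Among the anti-apoptotic genes, BCL2L1 (gene 397536, chromosome 17, 35366139 to 35415798 in Sscrofa11.1) encodes BCL-XL, which holds back both BAX and BAK1. It had 72.69 FPKM in Control 1, 58.54 FPKM in Control 2, 358.56 FPKM in Cu 1 and 71.58 FPKM in Cu 3. Cu 3 lay between both Control libraries, so the groups overlapped, and only Cu 1 was high. Its value was 4.93 times that of the next highest library, a ratio that 132 of the 8541 tested genes (1.55%) reached in the same library. On the log2(FPKM + 1) scale, the fold change of Cu over Control was 1.29 (standard error 0.72, 95% interval -0.49 to 3.06, limma's adjusted p = 0.738). Without Cu 1 it was 0.13 (standard error 0.30, adjusted p = 0.897), and without Cu 3, where the lone Cu library is assumed to vary like the others, it was 2.44 (standard error 0.29, adjusted p = 4.8e-05). The gene has 12 RefSeq transcripts, whose products include a long and a short form with opposite actions, and a value per gene does not separate them.

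BCL2L10 (gene 100153119, chromosome 1, 119594004 to 119607709) was the steadiest of the expressed genes. It had 82.12 FPKM in Control 1, 56.2 FPKM in Control 2, 76.75 FPKM in Cu 1 and 77.83 FPKM in Cu 3. Both Cu libraries fell between the Control libraries, and the highest value was 1.46 times the lowest. The log2 fold change was 0.18 (standard error 0.32, limma's adjusted p = 0.912). Its 95% interval, from -0.60 to 0.96, covers changes of either sign, and the sign turned to -0.06 with median-of-ratios scaling and to -0.09 without Control 2. Within each library, BCL2L10 ranked at the 91.8th to 94.2nd percentile of the 16050 genes, and BCL2L1 at the 92.2nd to 98.2nd.

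The ratio of these 2 genes varied mainly with BCL2L1, which was 4.67 times BCL2L10 in Cu 1, against 0.92 times in Cu 3 and 0.89 and 1.04 times in the Control libraries. In the Control libraries the order of the pair differed, and in Cu 3 they were again at about the same level per transcript length.

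MCL1 (gene 397648, chromosome 4, 98562092 to 98567014) encodes a short-lived guardian that is replaced quickly in many cell types. It had 0.23 FPKM in Control 1, 0.77 FPKM in Control 2, 2.16 FPKM in Cu 1 and 1.07 FPKM in Cu 3. The Cu values were both above the Control values, but MCL1 passed the filter of 1 FPKM in at least 2 libraries only through the Cu libraries, which by itself places them above. The log2 fold change was 0.79 (standard error 0.39, 95% interval -0.16 to 1.75, limma's adjusted p = 0.71), and without Cu 1 it was 0.49 (standard error 0.44, adjusted p = 0.674). With 0.1 in place of 1 added to FPKM it was 1.60, since the added 1 shrinks the differences of such low values. BCL2 (gene 100049703, chromosome 1, 158337403 to 158518214), the founding member of the family, was listed at 0 in all 4 libraries. No fold change can be given for it.

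The effectors were close to undetected in both groups. BAX (gene 396633, chromosome 6, 54222341 to 54228150), which moves from the cytosol to the membrane to form pores, was listed at 0 in all 4 libraries. BAK1 (gene 397543, chromosome 7, 29808849 to 29815345), which sits in that membrane, had 0.12 FPKM in Cu 1 and was listed at 0 in the other 3. The authors' mean FPKM was 0 for Control and 0.063 for Cu in the case of BAX, and 0.02 and 0.04 in the case of BAK1. Those means have the decimals of a mean over 3 libraries and are used only as the authors' values, without error. A listed 0 does not show that a transcript was absent. Of the 16050 genes with values, 491 (3.06%) were listed at 0 in all 4. The deposited expression values have 30684 rows, and the rows without values are not counted in this share.

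BID (gene 594852, chromosome 5, 69849007 to 69874647), the BH3-only protein that links death receptors to the mitochondrion once it is cleaved, had 0.04 FPKM in Control 1, 1.12 FPKM in Cu 1, and was listed at 0 in Control 2 and Cu 3. Cu 1 was again the high library, and without it BID was at 0.04 FPKM or less in each library. For the genes below the filter, a limma fit of 15559 genes without it put BID at 0.51 on the log2 scale (standard error 0.38, adjusted p = 0.818). For BAK1 the same fit gave 0.08, close to 0 because the added 1 outweighs such values. For CASP9 it gave -0.01, where both groups held nearly the same values, 0 and 0.11 FPKM in Control against 0.1 and 0 FPKM in Cu.

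Of the apoptosome genes, APAF1 was expressed and CASP9 hardly at all. APAF1 (gene 100513283, chromosome 5, 85166616 to 85258751), the scaffold that cytochrome c assembles, had 1.95 FPKM in Control 1, 3.94 FPKM in Control 2, 4.84 FPKM in Cu 1 and 4.26 FPKM in Cu 3. The Cu values were both above the Control values, although Control 2 lay only 0.32 FPKM below Cu 3 and the Control libraries were farther from each other than that. The log2 fold change was 0.54 (standard error 0.41, 95% interval -0.47 to 1.54, limma's adjusted p = 0.79). It was 0.46 without Cu 1, 0.17 without Control 1 and 0.91 without Control 2, and it was 0.27 with quantile normalization and 0.35 with median-of-ratios scaling. CASP9 (gene 100518913, chromosome 6, 74707597 to 74730033), the caspase that the apoptosome switches on, had 0.11 FPKM in Control 2 and 0.1 FPKM in Cu 1 and was listed at 0 in Control 1 and Cu 3, so that each group held 1 library at 0 and 1 near 0.1 FPKM.

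**Figure D2:**
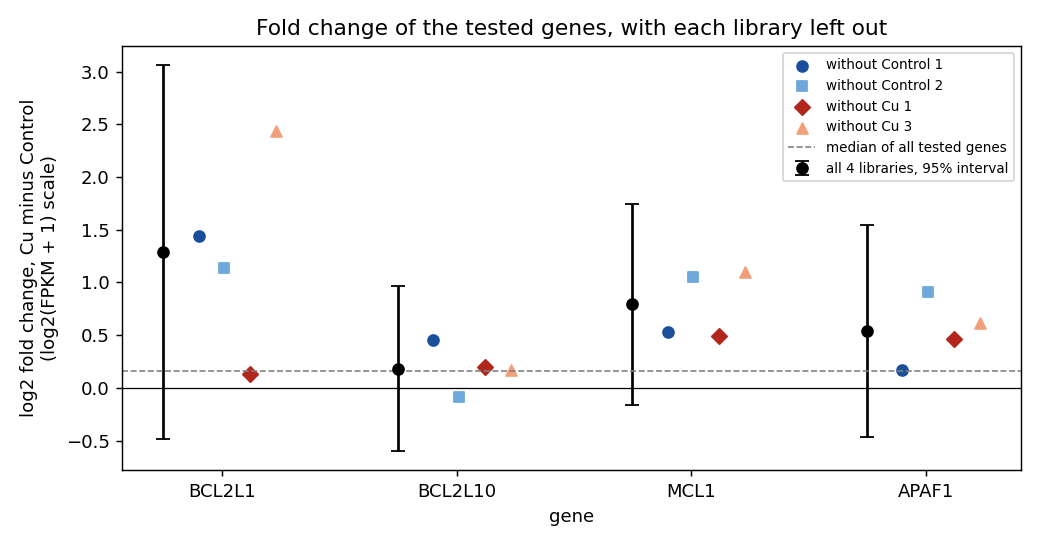
Log2 fold change of Cu over Control on the log2(FPKM + 1) scale for the 4 tested genes, as the estimate from all 4 libraries with its 95% interval (black) and with each library left out (coloured, in the colour of the library left out). The intervals of all 4 genes include 0, and BCL2L1 runs from 0.13 without Cu 1 to 2.44 without Cu 3.

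In order of the mean over the 4 libraries, the genes ran from BCL2L1 and BCL2L10 through APAF1, MCL1, BID, CASP9 and BAK1 to BCL2 and BAX. The only neighbours in this order whose ranges over the 4 libraries did not overlap were BCL2L10 and APAF1, where BCL2L10 was at least 14.3 times as high in every library. APAF1 was above MCL1 within each library, although their ranges met between the lowest APAF1 and the highest MCL1 value. With 2 libraries against 2, the exact two-sided permutation test of a single gene cannot give a p below 0.333, so no such test was used as evidence.

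Counted together, 4 of the 9 genes passed the filter and 5 (BCL2, BAX, BAK1, BID and CASP9) did not. The estimate was higher in Cu for all 4, as it was for 5494 of the 8541 tested genes. In limma's test an adjusted p of 0.05 or less was reached by 0 of the 4 and by 0.0% of all tested genes. At an unadjusted p of 0.05 or less 0 were higher, where 5.58% of all tested genes were, and 0 were lower, where 1.43% were. The groups did not overlap, with Cu the higher, in MCL1 and APAF1, a relation seen in 25.4% of all tested genes. With Cu the lower it was seen in 0 of the 4, and in 13.4% of all tested genes. For MCL1 the filter fixed that relation. The median log2 fold change of the 4 was 0.67, against 0.16 for all tested genes, but MCL1 had to be higher to be among them, and without Cu 1 these medians were 0.33 and 0.0023. Relative to the median of all tested genes, the differences were 1.12 for BCL2L1, 0.02 for BCL2L10, 0.63 for MCL1 and 0.37 for APAF1. Quantile normalization and median-of-ratios scaling moved the median of all tested genes to -0.05 and -0.04, and with them the genes at an unadjusted p of 0.05 or less divided into 361 higher and 288 lower, and 375 higher and 272 lower, compared with 477 and 122 as deposited. Under either scaling the groups overlapped in APAF1, and MCL1 was the 1 gene of the 4 in which they did not. Over all tested genes, Cu was then the higher without overlap in 16.7% and 17.1% and the lower in 22.8% and 22.0%.

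The authors' mean FPKM of Control and Cu were 85.7 and 163 for BCL2L1, 70.3 and 72.8 for BCL2L10, 0.683 and 1.30 for MCL1, and 2.64 and 3.99 for APAF1. These means include the libraries given above, Cu 1 among them, and are no independent check of a direction. For BCL2L1, the gene with the highest mean, the 3 tested genes nearest by Euclidean distance on log2(FPKM + 1) over the 4 libraries were ATOX1 (distance 0.419), which encodes a copper chaperone, LOC110260660 (0.434) and RPS10 (0.616), a ribosomal protein gene. ATOX1 was at 78.95 and 67.07 FPKM in the Control pair and at 285.33 and 78.38 FPKM in the Cu pair, each in replicate order, so that Cu 1 was the high library there too. With 4 libraries, such likeness is a description of their shared level in Cu 1.

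Some of the genes overlap others in the RefSeq annotation, and the counting is not stated to use strand. APAF1 overlaps IKBIP and CASP9 overlaps CELA2A, while BCL2, BCL2L1, BAK1 and BID overlap genes that have only LOC symbols. BCL2L10, MCL1 and BAX overlap no other gene of that annotation.

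The rest of the pathway was described with 74 genes on 9 lists by role, of which 65 had values and 38 were tested. By limma, 0 of the 38 reached an adjusted p of 0.05. At an unadjusted p of 0.05 or less 2 were higher and 0 lower, where 5.58% and 1.43% of all tested genes were. Cu was the higher without overlap in 12 and the lower in 6, where 25.4% and 13.4% of all tested genes were, so these counts were near the background. Without Cu 1, which leaves a single Cu library, they were 19 and 9 of the 38, where 37.4% and 37.1% of all tested genes were. The former was then above that background and the latter below it. The median log2 fold change was 0.09, against 0.16 for all tested genes, and 0.17 against 0.0023 without Cu 1. It turned to -0.16 with quantile normalization and to -0.12 with median-of-ratios scaling. Named here are the genes of each list with the highest mean level, at most 2 per list, and those at an unadjusted p of 0.05 or less.

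The other BCL2 family genes and BH3-only genes were also low, apart from a few. BCL2L14 had 18.0 to 28.0 FPKM over the 4 libraries and BCL2L13 had 4.67 to 8.96 FPKM, and neither separated the groups. BNIP3L, a mitophagy receptor, was the highest BH3-only gene with 9.21 to 13.7 FPKM, followed by BCL2L11 (BIM) with 0.88 to 1.65 FPKM. BBC3 (PUMA), a BH3-only gene singled out after its values were seen, was listed at 0 in all 4 libraries. The BH3-only genes other than BID summed to 14.74 and 14.35 FPKM in the Control pair and to 17.37 and 16.65 FPKM in the Cu pair. Without BNIP3 and BNIP3L, these sums were 2.26 and 2.82 FPKM in the Control pair and 6.0 and 2.35 FPKM in the Cu pair. The 4 anti-apoptotic genes BCL2, BCL2L1, BCL2L10 and MCL1 summed to 155 and 116 FPKM in the Control pair. In the Cu pair they summed to 437 and 150 FPKM, where Cu 1 was high through BCL2L1.

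**Figure D3:**
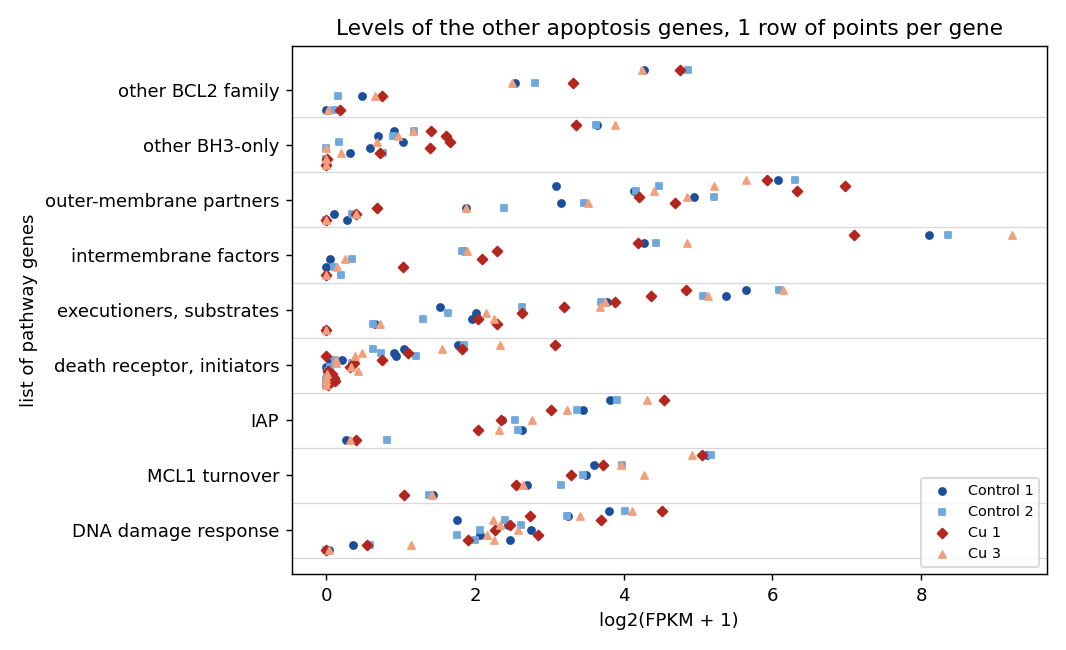
Levels of the 65 other apoptosis genes with values as log2(FPKM + 1), with 1 row of points per gene, 1 point per library, and genes ordered by mean level within each list. Cytochrome c (CYCS, 136 to 597 FPKM) is the highest, and the death receptor and initiator list lies nearly all below 2 on this scale.

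Upstream and downstream of the apoptosome, the levels were uneven. CYCS, cytochrome c itself, was at 275.14 and 328.64 FPKM in the Control pair and at 135.94 and 596.61 FPKM in the Cu pair. The Cu libraries were the lowest and the highest, and the groups overlapped. CYCS was 28.1 times APAF1 in Cu 1 and 83.4 to 141 times APAF1 in the other libraries. Cytochrome c has processed copies in mammalian genomes, so reads could have been shared with them. The executioner caspase CASP6 was at 40.58 and 32.6 FPKM in the Control pair and at 19.73 and 34.02 FPKM in the Cu pair. Cu 1 was the lowest library there, the reverse of BCL2L1, and Cu 3 lay between the Control libraries. OPA1, which shapes the inner membrane, had 17.3 to 27.8 FPKM.

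The 2 genes at an unadjusted p of 0.05 or less were TMBIM6 and PARP1, both higher in Cu. TMBIM6, a membrane protein of the endoplasmic reticulum known as BAX inhibitor 1, was at 7.5 and 21.22 FPKM in the Control pair and at 124.94 and 36.05 FPKM in the Cu pair. The difference was 2.31 on the log2 scale (standard error 0.72, limma's adjusted p = 0.646), or 1.43 without Cu 1. PARP1, a DNA repair enzyme that executioner caspases cleave, was at 1.9 and 5.22 FPKM in the Control pair and at 8.19 and 11.85 FPKM in the Cu pair. For this gene the difference was 1.36 (standard error 0.49, limma's adjusted p = 0.656), or 1.60 without Cu 1 and 0.81 without Control 1. Neither passed the adjusted threshold. VDAC1, the main channel of the outer membrane, was at 66.4 and 77.81 FPKM in the Control pair and at 59.98 and 48.94 FPKM in the Cu pair, with an adjusted p of 0.785.

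**Figure D4:**
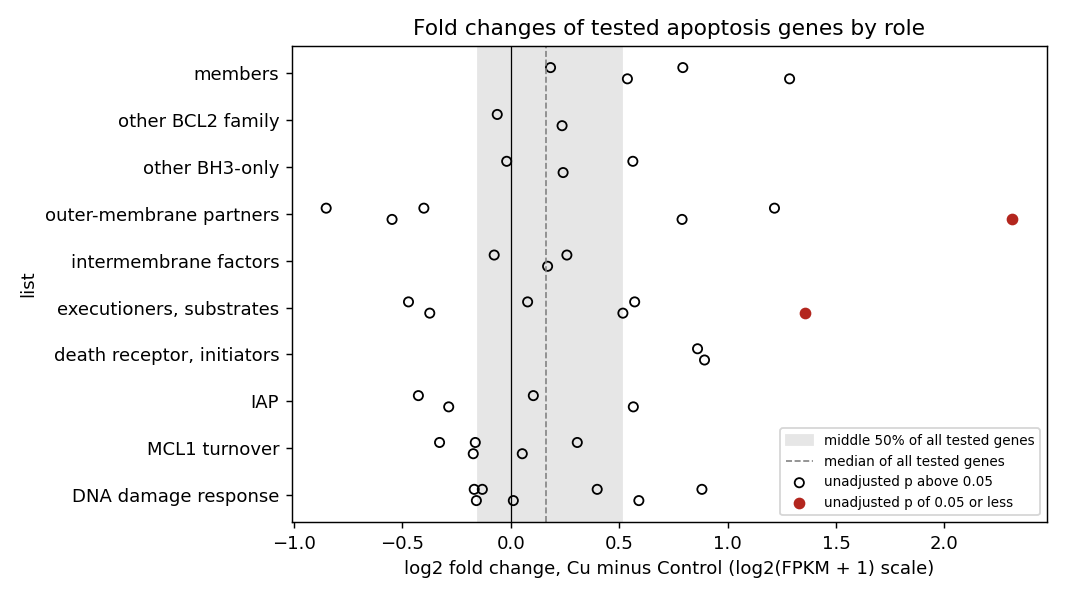
Log2 fold change of Cu over Control on the log2(FPKM + 1) scale, 1 point per tested gene, for the 4 tested members and the 38 tested genes of the 9 lists, with the middle 50% of all 8541 tested genes in grey (-0.15 to 0.51). TMBIM6 (2.31) and PARP1 (1.36), filled, are the only pathway genes at an unadjusted p of 0.05 or less, and neither passed after adjustment.

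By list, the tested genes divided into 1 higher and 1 lower for the other BCL2 family genes, 2 and 1 for the BH3-only genes, 2 and 1 for the factors of the intermembrane space, 3 and 3 for the partners at the outer membrane, 4 and 2 for the executioners, 2 and 0 for the death receptor list, 2 and 2 for the inhibitors of apoptosis, 2 and 3 for the genes of MCL1 turnover and 4 and 3 for a list of DNA damage response genes, none past the adjusted threshold. On the death receptor list 2 of 12 genes were tested, RIPK1 (2.4 to 7.4 FPKM) and CASP2 (0.54 to 2.55 FPKM), and CASP8, which cleaves BID and was picked with its values in view, had 0.02 FPKM in Cu 1 and was listed at 0 elsewhere. Among the inhibitors of apoptosis, which block caspases directly or act in cell division, BIRC5 (survivin) was at 13.1 and 14.0 FPKM in the Control pair and at 22.3 and 18.8 FPKM in the Cu pair, and BIRC6 had 9.96 and 9.4 FPKM against 7.14 and 8.41 FPKM. BIRC5 lay higher and BIRC6 lower in both Cu libraries, with adjusted p-values of 0.749 and 0.861. USP9X, which removes ubiquitin from MCL1, had 29.1 to 35.2 FPKM, and FBXW7, part of a ligase that marks MCL1 for decay, had 11.2 to 14.7 FPKM, both far above MCL1 itself. On the DNA damage list, TP63, whose product guards the genome of resting oocytes, had 12.9 to 21.8 FPKM, and ATM, a kinase that responds to DNA breaks, had 5.68 to 9.6 FPKM.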

How the data were processed

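Porcine metaphase II oocytes were profiled by Smart-seq2 RNA-seq, with 2 Control and 2 Cu libraries, grouped by the treatment label. What the authors deposited is FPKM per gene, to 2 decimals. The methods name SOAPnuke, HISAT2, Bowtie2 and RSEM, whereas the submitters' processing notes name TopHat2 2.0.13, Cufflinks 2.2.1, Cuffnorm and Cuffdiff with Sscrofa11.1, and the labels name an MGI sequencer where the methods name Illumina. Which tools made the FPKM could not be settled.

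Genes that reached 1 FPKM in 2 libraries or more (8541 of 16050) were compared on log2(FPKM + 1) with limma 3.58.1 in R 4.3.3 (variance trend, two-sided, Benjamini-Hochberg over all of them), after a test on simulated data. Intervals are 95% intervals of that fit. Positions are from RefSeq for Sscrofa11.1, to which all 16050 identifiers matched. The 9 members, the pathway lists and the tests were chosen with earlier results of these data known. All members are named. Of the other lists, the 2 genes with the highest mean and those at an unadjusted p of 0.05 or less are named, except where an item is not reported here. Depth is unknown, so no interval or floor for counting is given. Alternatives covered the pseudocount, the filter, the scaling, the variance trend, the authors' means and leaving out each library.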

Additional observations from a re-analysis of the deposited data

Results flagged for a closer look

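BAX and BCL2 were listed at 0 in every library analysed here, yet the authors' mean FPKM of Cu was 0.0633 for BAX and 0.0267 for BCL2, while the authors' mean of Control was 0 for both. The means have the decimals of 3 libraries per group, so each Cu mean includes a value that was not analysed here. Both values are far below 1 FPKM and have no error.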

How the results depend on the processing

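No paired analysis was possible because the groups share only the replicate number 1. The ratio of anti-apoptotic genes to BAX and BAK1 could not be given, with or without BCL2L1, since the divisor was listed at 0 in 3 libraries. Directions of BCL2L1, MCL1, APAF1, TMBIM6 and PARP1 held under every alternative run for them, of which the authors' means share these libraries. For MCL1 this is no support, because the filter had already placed both Cu libraries above. TMBIM6 and PARP1 were followed because of their unadjusted p in the main fit of these same libraries, so their directions have no independent support either. MCL1 has no value under a filter on every library. BCL2L10 turned to -0.0616 with median-of-ratios scaling and ranged from -0.0864 (without Control 2) to 0.45 with libraries left out. The median log2 fold change of the tested members (0.67) was 0.99 and 1.003 with 0.1 and 0.01 added, 0.51 without a filter, 0.54 with a filter on every library, 0.43 after quantile normalization, 0.51 after median-of-ratios scaling, and 0.33 to 0.98 with libraries left out. Members whose groups did not overlap numbered 1 with a filter on every library, quantile normalization or median-of-ratios scaling, and 2 to 4 with libraries left out, compared with 2. Over all tested genes the share was 38.8%, 39.5% and 39.0% in the former, and 58.7% to 83.5% with libraries left out, compared with 38.8%. With libraries left out, members at an adjusted p of 0.05 numbered 0 to 1 and at an unadjusted p of 0.05 0 to 2, and pathway genes 0 to 8 and 0 to 14, in each case highest without Cu 3, where the whole table gave 1755 genes at an adjusted p of 0.05. Pathway genes at an unadjusted p of 0.05 numbered 1 after quantile normalization, 0 without Control 1, 4 without Cu 1 and 3 without a filter or without a variance trend, compared with 2. The shares of all tested genes were 7.6%, 1.49%, 15.5%, 5.31% and 6.52%, compared with 7.01%. Without Cu 3, which leaves a single Cu library, 34.6% of all tested genes reached an unadjusted p of 0.05 and 20.5% an adjusted one. The 14 and 8 of the 38 pathway genes without Cu 3 were near those shares, and 4 members are too few to compare with them. The cause of the differences between these alternatives was not tested. The unknown depth limits what can be said of genes below 1 FPKM.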
